A study of Mus musculus with 12 samples.

Results

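Arg1, Nos2, Odc1 and Glul encode enzymes that use arginine, ornithine and glutamate, and they were taken by symbol as 4 of the 1448 genes measured in peritoneal macrophage RNA of 12 mice. Each of the 4 groups held 3 mice: aged mice (20 to 22 months) given PF-044 orally by gavage over 6 weeks (2.5 mg/kg each day), aged untreated mice, young mice (3 to 4 months) given the same course of PF-044, and young untreated mice. PF-044 blocks EP2, a prostaglandin E2 receptor that raises cyclic AMP. Nothing in the sources used here states strain, sex or whether the untreated mice received a vehicle, and no sorting step is named. Transcripts were counted with barcoded probes on the NanoString nCounter, and values are the authors' normalized log2 values. Arg1, Odc1 and Glul were above the lower limit of the table, 4.32 on the log2 scale, in all 12 mice. Nos2 was above it in 1.

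Macrophages draw on arginine along competing routes. Arginase 1, encoded by Arg1, splits arginine into ornithine and urea, and inducible nitric oxide synthase, encoded by Nos2, turns arginine into nitric oxide and citrulline. Ornithine decarboxylase, encoded by Odc1, makes putrescine from ornithine and controls the pace of polyamine synthesis. Glutamine synthetase, encoded by Glul, joins glutamate and ammonia to form glutamine. In mouse macrophages Arg1 is widely used as a marker of alternative activation and Nos2 as a marker of activation by interferon gamma and bacterial products.

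The inferred total count per sample ran from 533930 to 927614 in 11 mice and was 175127 in aged untreated replicate 2. Of 12 listed macrophage markers 10 are in the table, and their summed linear level was 14676 to 15927 in aged PF-044 mice, 7378 to 8748 in aged untreated mice, 23180 to 24093 in young PF-044 mice and 23309 to 24440 in young untreated mice. The 4 measured B cell markers (of 8 listed) summed to between 24108 and 27469 in aged PF-044 mice, between 43729 and 49225 in aged untreated mice, between 10445 and 13265 in young PF-044 mice and between 9730 and 10782 in young untreated mice. The labelled cell type is therefore present beside B cell transcripts. In RNA of a mixed sample, fewer cells of a type and less RNA per cell cannot be told apart. The 7 T cell markers summed to between 1788 and 1866 in aged PF-044 mice, 942 and 1038 in aged untreated mice, 1734 and 1945 in young PF-044 mice, and 1971 and 2204 in young untreated mice. The 9 mast cell markers summed to between 6422 and 9240 in aged PF-044 mice, 5680 and 6357 in aged untreated mice, 11896 and 14887 in young PF-044 mice, and 10724 and 12114 in young untreated mice. The 3 measured monocyte and small macrophage markers had a median sum of 3193 in aged PF-044, 3324 in aged untreated, 2675 in young PF-044 and 1851 in young untreated mice. The sum hides opposite changes, since 2 of the 3 rose and 1 fell with PF-044 in aged mice. Among all genes 25.7% rose and 15.2% fell in that comparison. Of 7 listed neutrophil genes, Ly6g and Elane were at the lower limit in all mice and 5 were above it in at least 1. The neutrophil marker sum had a median of 131 in aged PF-044, 163 in aged untreated, 187 in young PF-044 and 219 in young untreated mice.

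PF-044 moved Arg1 in opposite directions at the 2 ages. Arg1 stood at 8.50, 8.68 and 8.22 in aged PF-044 mice, at 7.90, 7.92 and 7.73 in aged untreated mice, at 7.59, 7.77 and 7.54 in young PF-044 mice, and at 8.43, 8.36 and 8.51 in young untreated mice. Aged PF-044 and young untreated mice were high and overlapped, and the remaining groups were low and overlapped each other. The spread between mice was widest in aged PF-044 mice (SD 0.23) and narrowest in young untreated mice (SD 0.07). These values rest on 52 inferred counts in aged untreated replicate 2, where counting alone gives a relative SD of 13.9%, and on 143 to 513 counts in the other 11 mice.

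In aged mice PF-044 raised Arg1 by 0.62 log2 units (SE 0.11, limma adjusted p 0.0011), to 8.47 ± 0.23 (SD, n = 3) against 7.85 ± 0.10 in aged untreated mice, which is 1.53-fold. In young mice Arg1 fell by 0.80 with PF-044 (SE 0.11, limma adjusted p 0.0011), to 7.63 ± 0.12 against 8.43 ± 0.07 in young untreated mice, or 57.3% of the untreated level. Neither pair of groups overlapped, as was so for 45.8% of 1190 tested genes in aged and 39.4% in young mice. Subtracting the young effect of PF-044 from the aged one gave 1.42 (SE 0.16, 95% interval 1.06 to 1.77, limma adjusted p 9.8e-05). It kept its direction and call under all 20 alternative settings run (1.18 to 1.54).

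Without the drug, Arg1 was lower in aged mice by 0.58 log2 units (SE 0.11, limma adjusted p 0.00095). Centred on 4 reference genes this difference was -0.18 and did not pass (limma adjusted p 0.195, with a range over 20 alternatives of 0.00018 to 0.195). With the drug the order was turned, and Arg1 was 0.84 higher in aged PF-044 mice than in young PF-044 mice (SE 0.11, limma adjusted p 0.00013). Aged PF-044 mice and young untreated mice differed by 0.03, with a 95% interval of -0.22 to 0.28 that leaves room for a difference either way. Macrophage markers moved in the direction of Arg1 in some of these comparisons and not in others. Of 10 tested, 9 fell with age in untreated mice and 8 rose with PF-044 in aged mice, beside 32.9% and 25.7% of all genes. The median marker sum was 15899 in aged PF-044 mice, 7898 in aged untreated mice and 23993 in young untreated mice. With PF-044 in young mice 3 fell, Adgre1 by 0.66, Itgam by 0.55 and Timd4 by 0.68, and Csf1r rose by 0.27, while the sum, of which Alox15 is 61.7% in young PF-044 and 51.0% in young untreated mice, was 23247 against 23993. Of all genes 5.71% fell and 8.4% rose with PF-044 in young mice. In aged PF-044 against young PF-044 mice, where Arg1 was 0.84 higher, 1 marker was higher and 3 were lower (median change -0.30). Of all genes 15% were higher and 22.5% lower there. In aged PF-044 against young untreated mice 7 markers were lower, beside 19.5% of all genes, where Arg1 gave 0.03. The part of these markers in the Arg1 results was not tested.

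**Figure D1:**
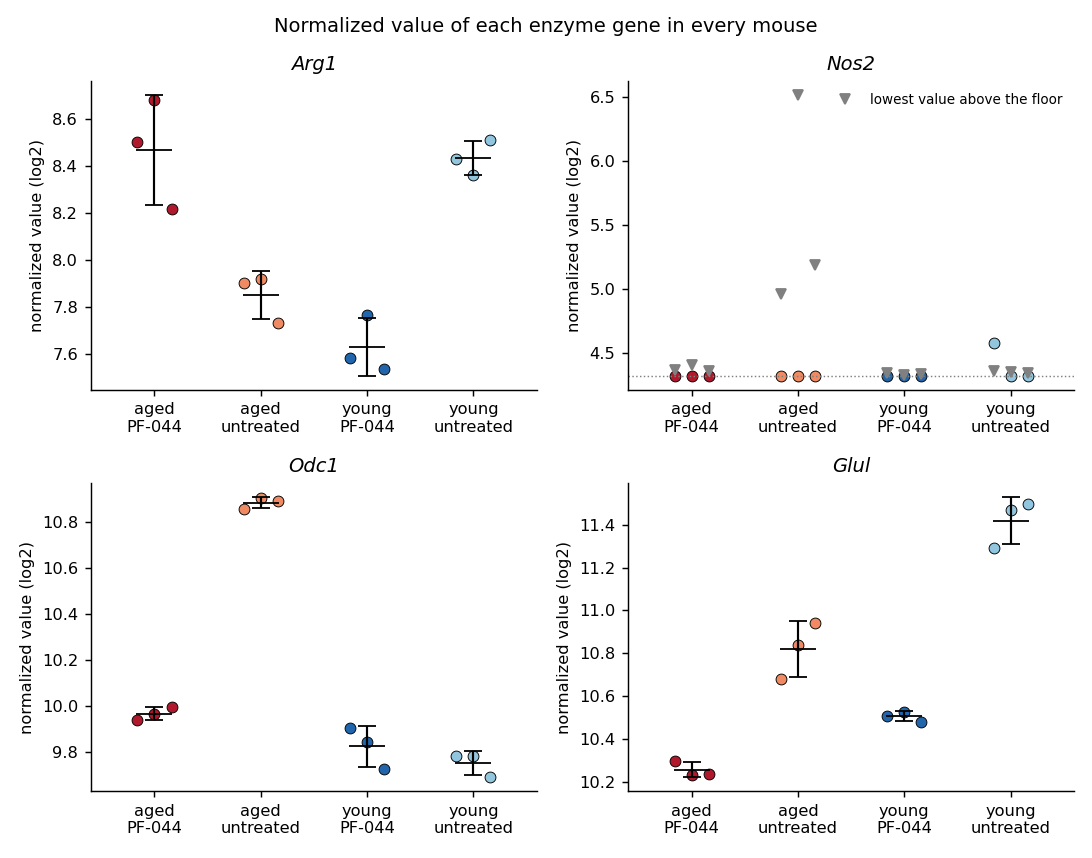
Normalized log2 value of Arg1, Nos2, Odc1 and Glul in each of the 12 mice by group, with 3 mice per group. Horizontal lines and bars are the mean and SD, which are not drawn for Nos2. Grey triangles give the lowest value above the lower limit in the same sample among genes scaled with Nos2, and the dotted line is the lower limit of 4.32. Arg1 is high in aged PF-044 and young untreated mice, Odc1 is high in aged untreated mice alone of the 4 groups, and Glul differs between all groups.

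Nos2 was at the lower limit in all aged PF-044, aged untreated and young PF-044 mice and in 2 of 3 young untreated mice. Its single value above the limit, 4.58 in young untreated replicate 1, corresponds to 28 inferred counts, where counting alone gives a relative SD of 18.9%. Nos2 gave no call in any of the 6 comparisons, and no fold is given because nearly all values are bounds. How tight the bound is differs between samples. Among the genes scaled together with Nos2, the lowest value above the limit was 20.6, 21.2 and 20.5 on the linear scale in aged PF-044 mice, and 31.1, 91.4 and 36.5 in aged untreated mice. It was 20.0 to 20.2 in young PF-044 mice and 20.3 to 20.5 in young untreated mice. Lower levels in a sample cannot be told from the limit, so the bound on Nos2 is loosest in aged untreated mice. Of the genes of the other nitric oxide synthases, Nos1 was at the limit in all 12 mice and Nos3 in 10.

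Odc1 was high in aged untreated mice and close to the young level in aged mice given PF-044. It stood at 9.941, 9.965 and 9.9985 in aged PF-044 mice, at 10.857, 10.905 and 10.894 in aged untreated mice, at 9.906, 9.844 and 9.729 in young PF-044 mice, and at 9.783, 9.785 and 9.691 in young untreated mice. All 3 aged untreated mice lay above every other mouse, and the spread within groups was small (SD 0.03 to 0.09). Of 1190 tested genes, 56.4% did not overlap between aged and young untreated mice, and 45.8% between the aged groups. Inferred counts behind these values ran from 505 in aged untreated replicate 2 to 1508 in aged untreated replicate 1.

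With age Odc1 rose by 1.13 log2 units in untreated mice (SE 0.05, limma adjusted p 6.8e-09), to 10.89 ± 0.03 (SD, n = 3) against 9.75 ± 0.05 in young untreated mice, which is 2.19-fold. PF-044 lowered it in aged mice: Odc1 fell by 0.92 (SE 0.05, limma adjusted p 2.7e-07), to 9.97 ± 0.03, or 53.0% of the aged untreated level. These 2 comparisons share the aged untreated mice, and the age comparison shares the young untreated mice with that of PF-044 in young mice. In young mice PF-044 gave 0.07 (limma adjusted p 0.44, 95% interval -0.04 to 0.18), and the young groups overlapped. The difference between the PF-044 effects was -0.99 (SE 0.07, limma adjusted p 4.0e-06), with -1.22 to -0.90 over the 20 alternatives.

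Aged PF-044 mice remained 0.22 above young untreated mice (SE 0.05, limma adjusted p 0.0059). Against young PF-044 mice they were 0.14 higher (SE 0.05, limma adjusted p 0.046), a call that held in 8 of 20 alternatives. It ended on leaving out any of the 3 aged PF-044 mice, aged untreated replicates 2 or 3, young PF-044 replicates 2 or 3, or young untreated replicates 1 or 2 (0.09 to 0.16, limma adjusted p over all alternatives 0.00055 to 0.17). In order, Odc1 was highest in aged untreated mice, then in aged PF-044, young PF-044 and young untreated mice, the last 2 of which were not separated. The B cell marker sum was in the same order over the groups, with a median of 25563 in aged PF-044 mice, 45533 in aged untreated mice, 11211 in young PF-044 mice and 10170 in young untreated mice. Its part in the Odc1 result was not tested.

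PF-044 lowered Glul at both ages. It stood at 10.30, 10.23 and 10.24 in aged PF-044 mice, at 10.68, 10.84 and 10.94 in aged untreated mice, at 10.51, 10.53 and 10.48 in young PF-044 mice, and at 11.29, 11.47 and 11.50 in young untreated mice. No group overlapped another, and both treated groups were tighter (SD 0.04 aged, 0.02 young) than the untreated ones (SD 0.13 aged, 0.11 young). Between the pairs of groups compared, 39.4% to 56.4% of 1190 tested genes did not overlap. Of the macrophage markers, 9 of 10 fell with age as Glul did and 8 rose with PF-044 in aged mice where Glul fell. Among all genes 32.9% fell with age in untreated mice and 25.7% rose with PF-044 in aged mice. The part of the markers was not tested. Inferred counts ran from 482 in aged untreated replicate 2 to 3868 in young untreated replicate 3.

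With PF-044 Glul fell by 0.56 log2 units in aged mice (SE 0.07, limma adjusted p 6.3e-05), to 10.26 ± 0.04 (SD, n = 3) against 10.82 ± 0.13 in aged untreated mice. In young mice it fell by 0.91 (SE 0.07, limma adjusted p 1.1e-05), to 10.51 ± 0.02 against 11.42 ± 0.11 in young untreated mice, or 53.1% of the untreated level. The effect in aged mice minus that in young mice was 0.35 (SE 0.10, limma adjusted p 0.021), a smaller fall at the older age. This difference did not pass without aged PF-044 replicate 1, young untreated replicate 2 or young untreated replicate 3 (0.31 to 0.33), nor when centred on the reference genes (0.12), with limma adjusted p of 0.0075 to 0.48 over the alternatives.

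Age also lowered Glul in untreated mice, by a change of -0.60 (SE 0.07, limma adjusted p 1.6e-05), which was -0.19 and did not pass when centred on the reference genes (limma adjusted p 0.058, the highest of 20 alternatives, the lowest being 1.3e-06). Under PF-044 the age difference was -0.25 (SE 0.07, limma adjusted p 0.015), and centring on the reference genes or on the median gene ended this call (-0.08 and -0.06, limma adjusted p 0.53 and 0.56, range 0.0072 to 0.56). The widest gap was between aged PF-044 and young untreated mice, at -1.16 (SE 0.07, limma adjusted p 3.2e-07) or 44.7% of the young untreated level.

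Read against the whole table, calls were common with age and with PF-044 in aged mice and less so with PF-044 in young mice. For age in untreated mice 3 of the 4 enzyme genes passed, and 54% of 1190 genes did. Odc1 was the 1 higher, beside 21.2% of all genes, and Arg1 and Glul were the 2 lower, beside 32.9%. These 3 did not overlap between the groups, as for 56.4% of genes. In PF-044 mice the age comparison called 3 of 4, beside 37.5%, with Arg1 and Odc1 higher (15% of genes) and Glul lower (22.5%). There too these 3 did not overlap between the groups, as for 51.6% of genes. PF-044 in aged mice called 3 of 4, beside 40.9%, with Arg1 higher (25.7%) and Odc1 and Glul lower (15.2%). PF-044 in young mice called 2 of 4, beside 14.1%, with 0 higher (8.4% of genes) and Arg1 and Glul lower (5.71%). The difference of the PF-044 effects called 3 of 4, beside 25.7%, with Arg1 and Glul above 0 (15%) and Odc1 below (10.8%). Aged PF-044 against young untreated mice called 2 of 4, beside 34.5%, with Odc1 higher (15%) and Glul lower (19.5%), and neither gene overlapped between these groups (51.8% of genes).

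**Figure D2:**
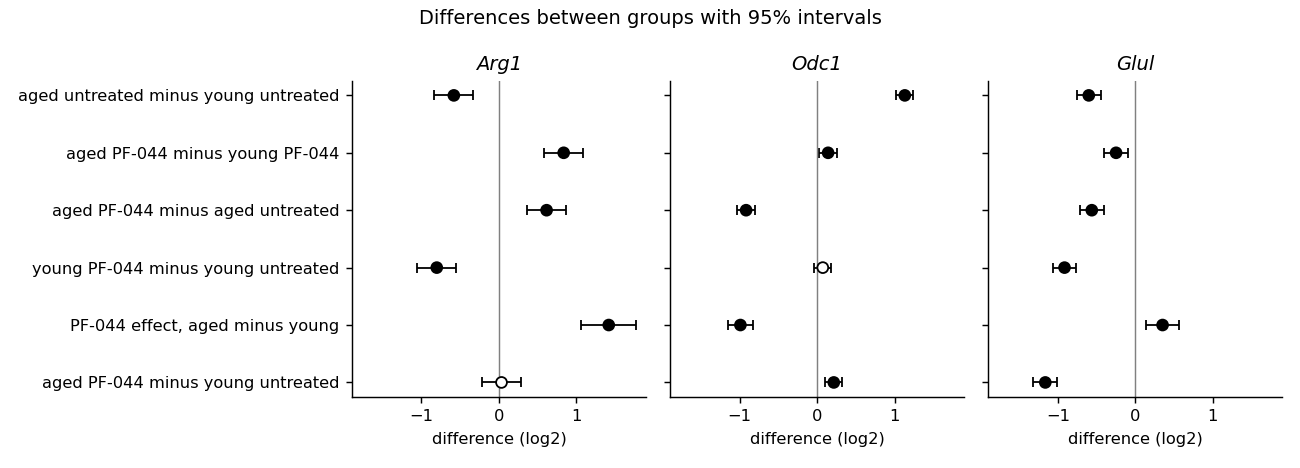
Fitted log2 differences of Arg1, Odc1 and Glul for the 6 comparisons, with 95% intervals from limma. Filled points passed at an adjusted p under 0.05, open points did not. The PF-044 effect on Arg1 lies on opposite sides of 0 in aged and young mice, that on Odc1 is -0.92 in aged and 0.07 in young mice, and that on Glul is negative at both ages.

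Promoter sequences of Odc1 and Glul are shown because EP2 signals through cyclic AMP and the core of the cyclic AMP response element can be looked for in them. They are from RefSeq on mouse build GRCm38.p6, plus strand, and end before the first base of the annotated gene. Arg1 lies on chromosome 10 from 24915207 to 24927470 and Nos2 on chromosome 11 from 78920787 to 78960226. Odc1 lies on chromosome 12 from 17544808 to 17551502, and its stretch is chr12:17544623-17544807. Glul lies on chromosome 1 from 153899929 to 153909723, and its stretch is chr1:153899679-153899928. Capitals mark GC boxes (GGGCGG on either strand) and the cyclic AMP element core TGACG.
Odc1: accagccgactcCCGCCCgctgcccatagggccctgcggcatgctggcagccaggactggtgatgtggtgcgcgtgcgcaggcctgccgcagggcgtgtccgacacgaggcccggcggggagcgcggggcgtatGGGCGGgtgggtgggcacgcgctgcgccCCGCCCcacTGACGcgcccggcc
Glul: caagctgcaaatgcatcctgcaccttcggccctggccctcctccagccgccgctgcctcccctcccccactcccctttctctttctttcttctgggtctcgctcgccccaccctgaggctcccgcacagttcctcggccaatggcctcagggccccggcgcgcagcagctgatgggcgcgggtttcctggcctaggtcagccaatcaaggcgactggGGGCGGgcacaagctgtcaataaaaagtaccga

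Within 250 bases before the transcript start, Odc1 held TGACG at 79 to 75 bases before it, and Glul held none on either strand. Of 32851 mouse promoter windows of that length, 17.8% hold this core. GC boxes numbered 4 in the Odc1 window, 1 of them nearer the start than the printed stretch, and 1 in the Glul window, and 32.7% of windows hold at least 1. Neither window held the E-box CACGTG of Myc and Max (6.02% of windows), TATAAA (12.4%), or the STAT pattern TTCNNNGAA (7.02%) and its form with 1 more spacer base (5.85%). A match is a run of letters and not a shown binding site.

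Among the genes around arginine and ornithine, Oat and Ass1 were higher in aged untreated than in young untreated mice. Of 9 genes tested for arginine supply and nitric oxide, 3 rose with age in untreated mice and 0 fell. Among all genes 21.2% were higher and 32.9% lower. The median change was 0.19 beside -0.07 for all genes, and 0.19 is the value of the list gene Pycr1. Pycr1, Otc and Nos3 were each at the lower limit in 10 mice. Among untreated mice Pycr1 was above the limit in aged untreated replicate 1 alone (4.88), so the median does not show a rise of the list. In aged untreated replicate 2, 5 of the 9 genes were at the limit. Oat, ornithine aminotransferase, which sends ornithine toward glutamate and proline, stood at 10.11, 10.14 and 9.98 in aged PF-044 mice, 10.92, 10.86 and 10.93 in aged untreated mice, 9.20, 9.57 and 9.33 in young PF-044 mice, and 9.51, 9.79 and 9.74 in young untreated mice. All aged untreated mice were above all others, as for Odc1. Of all genes, 56.4% did not overlap between aged and young untreated mice, and 45.8% between the aged groups. Oat rose by 1.23 with age (SE 0.09, limma adjusted p 4.8e-07) and fell by 0.83 with PF-044 in aged mice (SE 0.09, limma adjusted p 3.5e-05).

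The difference between its PF-044 effects was -0.52 (limma adjusted p 0.014). Its fall of -0.31 with PF-044 in young mice was at limma adjusted p 0.049 and was lost in 12 of 20 alternatives, among them leaving out any of the 3 aged PF-044 mice, aged untreated replicates 1 or 3, young PF-044 replicates 1 or 3, or young untreated replicates 2 or 3. Ass1, argininosuccinate synthase, which rebuilds arginine from citrulline, rose by 0.77 with age (SE 0.09, limma adjusted p 1.7e-05) and gave -0.03 with PF-044 in aged mice (limma adjusted p 0.84). Asl, the enzyme after Ass1, gave -0.16 (limma adjusted p 0.44). Of the 2 polyamine genes beside Odc1, Srm, spermidine synthase, fell by 0.71 with age (SE 0.07, limma adjusted p 6.5e-06) and rose by 0.36 with PF-044 in aged mice, the reverse of Odc1. Slc3a2, the shared chain of several amino acid transporters, fell by 0.46 with age, and centring on the reference genes ended that call (-0.06) and the rise of Srm with PF-044 (0.13), and gave -0.30 for Srm with age.

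Odc1, Glul, Srm and Oat belong to one group of genes that share a scale factor in every sample, so their ratios within a mouse do not depend on the scaling between samples. The log2 ratio of Odc1 to Glul was -0.36, -0.27 and -0.24 in aged PF-044 mice, 0.18, 0.07 and -0.05 in aged untreated mice, -0.60, -0.68 and -0.75 in young PF-044 mice, and -1.51, -1.68 and -1.80 in young untreated mice. All 4 groups were apart. The geometric mean ratio was 3.32-fold higher in aged untreated than in young untreated mice and 1.98-fold higher in young PF-044 than in young untreated mice. It was 0.78-fold in aged PF-044 against aged untreated mice. The ratio of Odc1 to Srm was 3.57-fold higher in aged untreated than in young untreated mice and 0.41-fold in aged PF-044 against aged untreated mice. The ratio of Odc1 to Oat overlapped between groups for both of these comparisons (0.94-fold each). Over the 12 ratio comparisons, each pair without overlap gave an exact two-sided permutation p of 0.1, the smallest that 3 against 3 mice allow, and 0.15 after Benjamini-Hochberg adjustment. A ratio shows unequal change and not which gene moved.

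**Figure D3:**
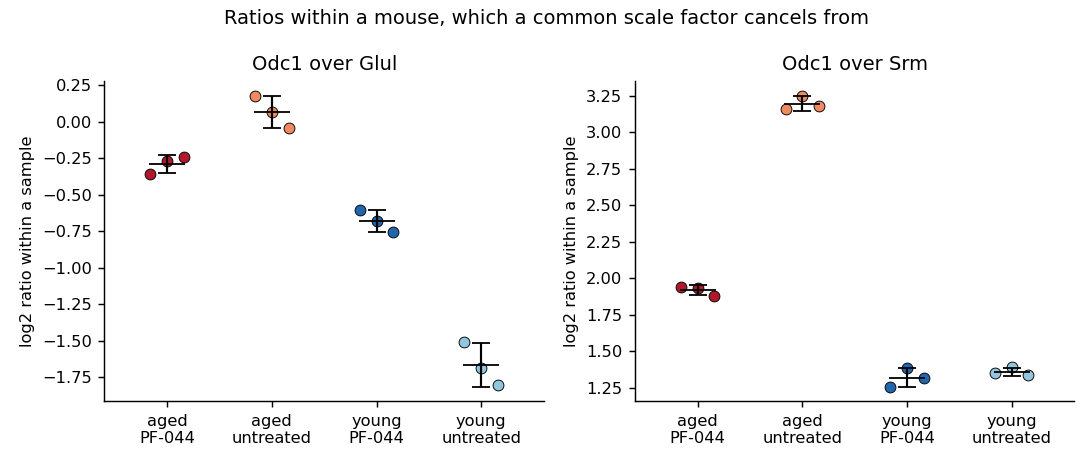
Log2 ratio of Odc1 to Glul and of Odc1 to Srm within each mouse, with group mean and SD of 3 mice. The Odc1 to Glul ratio separates all 4 groups, highest in aged untreated mice (mean 0.07) and lowest in young untreated mice (-1.67), and the Odc1 to Srm ratio is highest in aged untreated mice (3.20).

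Genes that use or make glutamine and glutamate moved in both directions. Of 15 tested beside Glul, 2 rose and 5 fell with age in untreated mice (median -0.09), 3 rose and 4 fell with PF-044 in aged mice (median -0.10), and 1 rose and 1 fell with PF-044 in young mice (median -0.10). The medians of all genes in these comparisons were -0.07, 0.02 and 0.02. Among all genes 21.2% rose and 32.9% fell with age, 25.7% rose and 15.2% fell with PF-044 in aged mice, and 8.4% rose and 5.71% fell with PF-044 in young mice. In aged untreated replicate 2, 5 of the 15 genes were at the lower limit. Of the 3 rises with PF-044 in aged mice, 1 of 1.03 was 0.465 without that mouse. Cad, which starts pyrimidine synthesis from glutamine, stood at 8.138, 7.997 and 8.239 in aged PF-044 mice, 6.898, 7.173 and 7.157 in aged untreated mice, 8.364, 8.276 and 8.408 in young PF-044 mice, and 8.516, 8.472 and 8.377 in young untreated mice. All aged untreated mice were below every other mouse. Among all genes 56.4% did not overlap between aged and young untreated mice, and 45.8% between the aged groups. Cad fell by 1.38 with age (SE 0.09, limma adjusted p 1.7e-07) and rose by 1.05 with PF-044 in aged mice (SE 0.09, limma adjusted p 6.1e-06).

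Gmps, which uses glutamine to make GMP, fell with PF-044 at both ages, by 0.61 in aged mice (limma adjusted p 0.0011) and 0.76 in young mice (limma adjusted p 0.0014), and it rose by 0.86 with age (limma adjusted p 4.1e-05). Gclc, the first enzyme of glutathione synthesis, rose by 0.60 with age, and the serine pathway enzyme gene Psat1 fell by 0.76, a call lost when centred on the reference genes (-0.35). In aged mice PF-044 lowered Slc7a5, a transporter of large neutral amino acids (-0.55), and Glud1, glutamate dehydrogenase (-0.34). Slc1a5, a glutamine transporter, rose by 0.25 and 0.31 with PF-044 in aged and young mice, and both calls ended when centred on the median gene (0.13 and 0.22). Its fall of -0.27 with age turned to 0.14 when centred on the reference genes.

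**Figure D4:**
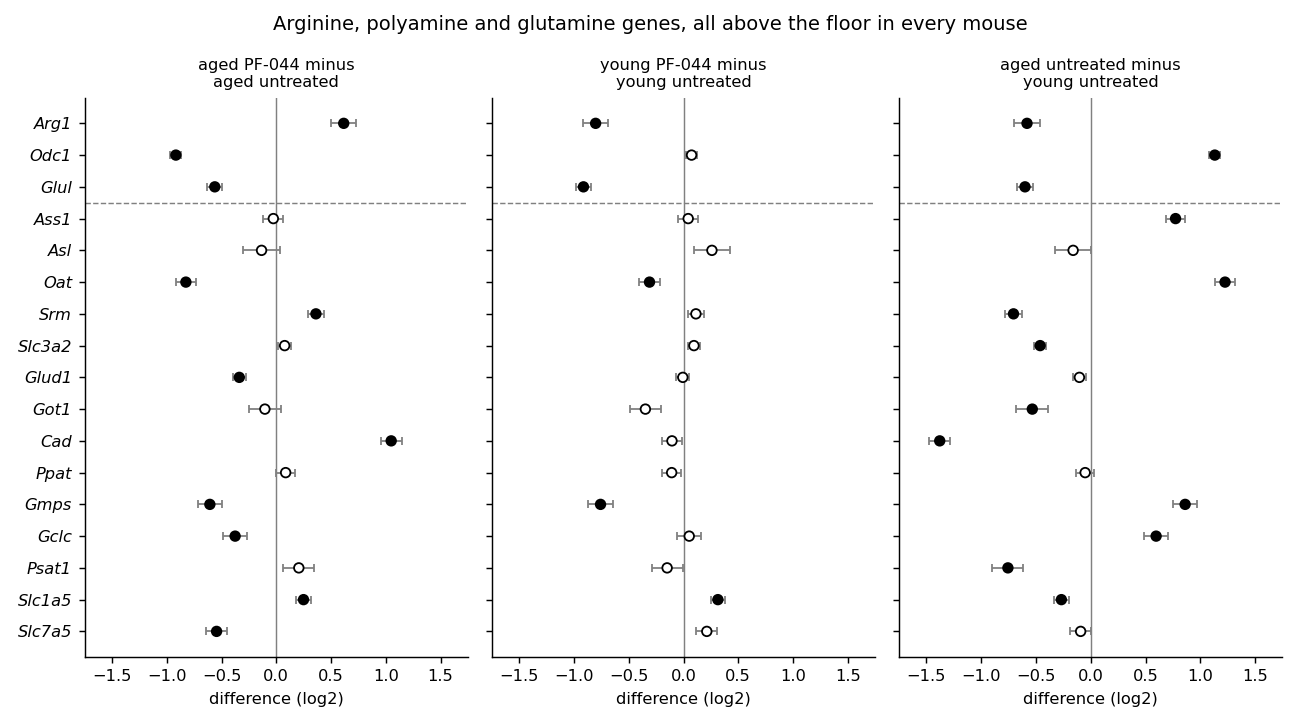
Fitted log2 difference with its SE for Arg1, Odc1 and Glul (above the dashed line) and for other arginine, polyamine and glutamine genes, each above the lower limit in all 12 mice. Filled points passed at an adjusted p under 0.05. Oat lies with Odc1 and Cad opposite to it in aged PF-044 against aged untreated mice (-0.83, -0.92 and 1.05) and in aged untreated against young untreated mice (1.23, 1.13 and -1.38).

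Regulators known to act on these genes moved in both directions. They are set beside all genes, of which 21.2% rose and 32.9% fell with age in untreated mice and 25.7% rose and 15.2% fell with PF-044 in aged mice. Of 14 tested genes on the IL-4, IL-10 and cyclic AMP side of Arg1, 2 rose and 7 fell with age in untreated mice, and 6 rose and 1 fell with PF-044 in aged mice, with medians of -0.27 and 0.21. In aged untreated replicate 2, 4 of the 14 were at the lower limit. A rise of 0.945 among the 6 was 0.52 without that mouse, and another of 0.22 was -0.01 when centred on the reference genes. Cebpb, a transcription factor needed for Arg1 induction, fell by 1.23 with age (SE 0.07, limma adjusted p 4.8e-08). It rose by 0.39 with PF-044 in aged mice and fell by 0.27 with PF-044 in young mice. Centring on the reference genes ended both PF-044 calls of Cebpb (0.16 and -0.27). Leaving out young PF-044 replicate 2 or any of the 3 young untreated mice also ended the call in young mice (-0.29 to -0.21).

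Stat6, through which IL-4 induces Arg1, fell by 0.63 with age and rose by 0.44 with PF-044 in aged mice, and gave -0.02 in young mice (limma adjusted p 0.92). Stat3, which carries the IL-10 signal, fell by 0.86 with age and rose by 0.60 with PF-044 in aged mice. Centred on the reference genes these values were -0.22 and 0.21 for Stat6 and -0.46 and 0.37 for Stat3, and all 4 still passed. Il10 itself ran the other way, with 2.67 for age and -2.18 for PF-044 in aged mice. Il4 and Il13 passed in no comparison. Il13 was at the lower limit in 11 mice, so its lack of a call does not show an unchanged level. Il4 was at the limit in aged untreated replicates 2 and 3, which limits its comparisons with aged untreated mice in the same way. Of 13 genes on the interferon and Toll-like receptor side of Nos2, 2 rose and 8 fell with age in untreated mice (median -0.35), and 6 rose and 2 fell with PF-044 in aged mice (median 0.35). In aged untreated replicate 2, 2 of the 13 were at the lower limit. A rise of 0.74 among the 6 was 0.37 and not called without that mouse. Ifngr1, a chain of the interferon gamma receptor, fell by 1.24 with age and rose by 0.54 with PF-044 in aged mice, a rise lost when centred on the reference genes (0.31). Nfkb1 fell by 0.54 with age, also lost there (-0.13), and rose by 0.58 with PF-044 (0.35 there, still called).

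Of 6 regulators of Odc1 and Glul, 0 rose and 4 fell with age (median -0.24). With PF-044 in aged mice, where Odc1 and Glul fell, 3 rose and 0 fell (median 0.145). Of these rises, those of Myc (0.21) and Ctnnb1 (0.26) were not called when centred on the median gene (0.098 and 0.147). On the reference genes they were -0.017 and 0.032 and were not called. The Myc call also ended after quantile normalization, without a filter or trend, and on leaving out most single mice (0.15 to 0.21). In aged untreated replicate 2, 2 of the 6 regulators were at the lower limit, 1 of them the third that rose (1.41). That rise was 0.79 without this mouse, 0.33 with a common limit of 100, and not called without aged PF-044 replicate 1 (1.36). Myc, which drives Odc1 transcription, was 10.35 in aged untreated and 11.15 in young untreated mice, a fall of 0.80 (SE 0.08, limma adjusted p 3.2e-06) that was -0.39 when centred on the reference genes. Nr3c1, the glucocorticoid receptor gene, through which Glul is induced in several tissues, fell by 0.24 with age and turned to 0.17 when centred on the reference genes. Over all 6 lists 35 of 59 genes passed with age in untreated mice, 27 with PF-044 in aged mice and 9 with PF-044 in young mice, where 54%, 40.9% and 14.1% of all genes passed. Centred on the reference genes, 20 of the 35 kept their call and direction, and 14 of the 27. With PF-044 in young mice, the count was 14 without aged untreated replicate 2, and 5 without young PF-044 replicate 3 or any of the 3 young untreated mice. Of the 10 macrophage markers 9 fell with age as well, beside 32.9% of all genes, and the part of the markers was not tested.

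The genes with the most similar pattern over the 12 mice differed between the 3 measurable members. Correlations describe the group pattern, since the mice share groups and scale factors. For Odc1 they were Il10 (Pearson r 0.99), the kinase gene Mapk8 (0.99) and the B cell kinase gene Blk (0.99), and the most opposite was Cad (-0.98). Within groups, after group means were removed, the r of Il10, Mapk8 and Blk with Odc1 was 0.14, 0.13 and 0.42. Blk was at 10.12 ± 0.04 (SD, n = 3) in aged PF-044, 10.82 ± 0.04 in aged untreated, 9.93 ± 0.03 in young PF-044 and 9.81 ± 0.07 in young untreated mice. In all, 63 of 1189 genes had an r over 0.9 with Odc1, against 2 for Arg1 and 0 for Glul. An r under -0.9 was found for 85 genes with Odc1, 0 with Arg1 and 3 with Glul.

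For Arg1 the nearest were Apoe, encoding the lipid carrier apolipoprotein E (r 0.96), the Fc receptor gene Fcgr3 (0.92) and the chemokine receptor gene Ccr9 (0.84), which was at the lower limit in 3 mice. Apoe was 13.48 ± 0.14 in aged PF-044 mice, 13.05 ± 0.05 in aged untreated mice, 12.92 ± 0.07 in young PF-044 mice and 13.54 ± 0.09 in young untreated mice, with the same 2 high and 2 low groups as Arg1. Within groups Apoe and Fcgr3 had an r of 0.66 and 0.68 with Arg1. Cab39 was the most opposite (-0.90). For Glul they were Jak2, a cytokine receptor kinase gene (0.90), Tnfrsf8, encoding CD30 (0.89), and Rragc, a GTPase gene of the amino acid sensing route to mTORC1 (0.89), and the interferon regulatory factor gene Irf5 was the most opposite (-0.93). Jak2 fell with PF-044 by 0.42 at both ages (limma adjusted p 7.1e-05 aged, 0.00069 young) and gave -0.07 with age (limma adjusted p 0.31). Without aged untreated replicate 2, the 3 nearest genes were unaltered for Odc1, and 2 of 3 were shared for Arg1 and for Glul.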

How the data were processed

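Per the labels' protocols, peritoneal macrophage RNA came from a spin column kit and was counted on a NanoString nCounter. The authors deposited normalized log2 values. The submitters' processing notes name limma without a version. The sources used here do not state the background correction, scaling or probe targets. No value lies under 4.32 in log2 units, which is 20 linear, and 258 of 1448 genes at this limit in all samples were left out. In 3 groups of genes, 99.9% of 11921 higher values are whole multiples of a step per sample within 0.008 linear units, and value over step is called the inferred count. Where the step exceeded 1, the lowest inferred count was 20. Counting SDs cover counting error only, and 95% intervals are limma's, from the spread between mice.

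The 1190 remaining genes were fitted with limma 3.58.1 in R 4.3.3 (1 coefficient per group, 6 contrasts, eBayes with trend, 8 residual degrees of freedom), two-sided, with Benjamini-Hochberg adjustment over all of them at 0.05. The shared variance assumes equal spread in all groups. The fit was tested on simulated data. Members, gene lists, tests and the rule for named genes (members, the 3 most similar and the most opposite genes, and up to 4 called genes per list) were chosen with earlier results of these data known. Replicates are separate mice per the series' design, and no batch is labelled. Replicate numbers were not treated as pairs: same-numbered samples of 2 groups had correlated deviations over 0.1 in 5 of 18 pairs. Alternatives were other filters and limits, 3 other scalings, no trend, a replicate block and leaving out each sample. Some listed genes enter the counts but are not reported here by name. The ratios within a mouse were chosen after seeing the data. Names and promoters are from RefSeq (GRCm38.p6), where 1431 symbols match as current and 14 as synonyms.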

Additional observations from a re-analysis of the deposited data

Results flagged for a closer look

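PF-044 effects that differed between aged and young mice, by the test of the difference itself (aged minus young, limma adjusted p under 0.05), are given here in log2 units. Among the enzymes they were Arg1 (1.42), with treated mice above all untreated ones in aged mice and below all of them in young mice, Odc1 (-0.99) and Glul (0.35). Of the arginine and glutamine genes they were Cad (1.15), Oat (-0.52), Slc7a5 (-0.76) and Glud1 (-0.33). On the Arg1 side they were Il10 (-2.57), Cebpb (0.66), Stat6 (0.46) and Stat3 (0.44). On the Nos2 side they were Ifngr1 (0.79), Irf8 (0.76), Irf1 (0.64) and Nfkb1 (0.54). Centred on the reference genes, Stat6 (0.22), Stat3 (0.20), Irf8 (0.52) and Nfkb1 (0.31) no longer passed. Ctnnb1, which codes for beta-catenin, gave 0.32, a call lost in 11 of 20 alternatives: with the replicate block, without a filter or trend (0.32 each), on the reference genes (0.086), and without aged PF-044 replicates 1 or 2, aged untreated replicate 2, young PF-044 replicates 2 or 3, or young untreated replicates 2 or 3 (0.25 to 0.32). The reference genes Gusb (0.66) and Gapdh (0.56; 0.33 and not passed when centred on them) differed too, and both are among the 4 genes centred on below. All of these differences involve the aged untreated mice, in which replicate 2 has the lowest inferred total count.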

How the results depend on the processing

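Of 360 values of Arg1, Odc1 and Glul recomputed over 18 results and 20 alternatives, 337 kept their direction and call. Centring on the reference genes shifted the median gene to 0.34 for age in untreated mice (-0.07 as deposited), -0.21 for the drug in aged mice (0.02), and -0.23 for the difference of effects (0.0029). It gave Arg1 -0.18 and Glul -0.19 for age in untreated mice, Glul -0.0764 for age in PF-044 mice and 0.12 for the difference of PF-044 effects, and 5 called list genes for PF-044 in young mice, against 9. Gusb, 1 of the 4 genes centred on, itself fell by 1.51 with age. Centring on the median gene gave Glul -0.0638 for age in PF-044 mice and turned Odc1 to -0.0203 for PF-044 in young mice, which had not passed. The age difference of Odc1 in PF-044 mice stayed at 0.14 but was not called with the replicate block, without the trend or among genes above the limit in every sample. The replicate block ended no other call of these 3 genes.

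Leaving out single mice gave 0.0931 to 0.18 for that Odc1 difference, 0.28 to 0.42 for the difference of PF-044 effects on Glul, -0.0742 to 0.16 for Arg1 in aged PF-044 against young untreated mice, and 5 to 14 called list genes for PF-044 in young mice. Except where a scaling's own shift is given, the cause was not tested. The share of all calls that were higher with age in untreated mice was 39.2% as deposited, 58.2% centred on the median gene, 71.3% on the reference genes and 49.4% after quantile normalization. For age in PF-044 mice it was 39.9%, 63.2%, 63.2% and 52.8% in that order, for PF-044 in aged mice 62.8%, 49.1%, 34.9% and 55%, and for PF-044 in young mice 59.5%, 29.5%, 51.4% and 51.1%. For the difference of effects it was 58.2% as deposited and 26.8% on the reference genes, and for aged PF-044 against young untreated mice 43.4%, 55.8%, 65.5% and 53.1%. Genes called for PF-044 in young mice numbered 168 as deposited, 107 on the reference genes and 100 to 237 on leaving out single mice. With a common limit of 100 on the linear scale, Nos2 was above it in 0 mice.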
